A study of Homo sapiens with 15 samples.

Results

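Mitochondrial ribosomal protein genes were taken as every protein-coding gene whose symbol starts with MRPL or MRPS and a number, together with DAP3. The rule found 75 genes, 46 of the large subunit (MRPL) and 29 of the small subunit (MRPS and DAP3), and it found the same 75 in each table, among 13751 genes tested for PC3, 12998 for P493-6 given MYCi975 and 13703 for P493-6 given tetracycline. All 75 passed the authors' removal of genes with few reads in all 3 tables. Mitochondria keep their own ribosome, which translates the few messenger RNAs of the mitochondrial genome into core subunits of the respiratory chain and of ATP synthase. Its ribosomal RNAs are encoded in mitochondria, whereas all of its proteins are encoded in the nucleus, made in the cytosol and imported. Some of these proteins descend from the bacterial ribosome and others arose in mitochondria. Genes for mitochondrial ribosomal proteins are known as targets of MYC, a transcription factor that raises the output of growth genes.

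The study measured RNA in 2 human cell lines to ask how MYCi975, a small-molecule inhibitor of MYC, changes MYC target genes. PC3 is a prostate cancer line with high MYC of its own, and its cells received DMSO or 8 µM MYCi975 dissolved in DMSO. P493-6 is a MYC-overexpressing B cell line, labelled as Burkitt lymphoma, whose introduced MYC gene is shut off by tetracycline, and its cells received DMSO, the same compound at 6 µM, or tetracycline in water at 0.1 µg/ml. Every treatment lasted 24 h, and the 15 libraries form 5 groups of 3. Tetracycline was therefore compared with a DMSO control, and vehicle and MYC shut-off cannot be told apart in that comparison. Whether replicate libraries stem from separate cultures is not stated in the labels, and the p-values therefore reflect only how much these libraries vary, which may be technical. Tetracycline antibiotics are also known to bind bacterial and mitochondrial ribosomes, and no group here separates that action from the loss of MYC.

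Depth ran from 8162582 to 15926008 reads per library. MYC mRNA was 4728 ± 54.8 CPM in P493-6 controls, 5118 ± 29.4 with MYCi975 and 149 ± 3.75 with tetracycline (mean ± SD, n = 3, with CPM standing for counted reads per 1000000 in the library). In PC3 it was 304 ± 4.96 CPM in controls and 374 ± 13.6 with MYCi975, so the libraries labelled tetracycline were the ones low in MYC mRNA. All 8 B cell markers were listed in P493-6 and none of the 8 in PC3, whereas all 6 epithelial markers were listed in PC3, with summed levels of 1473 to 1654 CPM. In P493-6 2 of the 6 epithelial markers were listed in controls and with MYCi975 and 3 with tetracycline, at sums of 5.15 to 14.7 CPM. EPCAM, an epithelial adhesion molecule, was nevertheless at 10.7 to 11.9 CPM in P493-6 controls and 13.5 to 15.9 CPM in PC3 controls. Of the prostate markers, 1 of 2 was listed in PC3, at a summed level of 1.06 to 2.05 CPM. The summed B cell markers went from between 1793 and 1858 CPM in controls to between 5368 and 5385 CPM with tetracycline, and between 1970 and 2037 CPM with MYCi975. Their part in the changes of the ribosomal genes was not tested.

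The promoters of the genes are shown first, since MYC is known to bind the E-box CACGTG and since nuclear genes for mitochondria are known to be driven by ETS factors, NRF1 and YY1. RefSeq (GRCh38.p14) gave a window from 250 bases before to 50 bases after the start site for 66 of the 75 genes. No window was matched for MRPL2, MRPL10, MRPL13, MRPL15, MRPL21, MRPL23, MRPL35, MRPS28 and MRPS36. Each motif was searched on both strands, and the words do not overlap one another in the stretches printed. Below, 4 stretches from 150 bases before to 20 bases after the start are printed 5′ to 3′ on the strand of the gene, with motif words in capitals. MRPL36 is shown because it held an E-box beside NRF1 and YY1 words, MRPS34 because it held the ETS word 3 times and fell steeply with tetracycline, MRPL4 because it fell most with tetracycline and held no motif, and MRPL40 because it was not called lower with tetracycline.
MRPL36, chr5:1799818-1799987, minus strand: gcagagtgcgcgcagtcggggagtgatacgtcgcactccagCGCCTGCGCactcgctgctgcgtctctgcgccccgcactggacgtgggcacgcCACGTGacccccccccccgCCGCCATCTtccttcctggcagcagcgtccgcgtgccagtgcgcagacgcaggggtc
MRPS34, chr16:1773115-1773284, minus strand: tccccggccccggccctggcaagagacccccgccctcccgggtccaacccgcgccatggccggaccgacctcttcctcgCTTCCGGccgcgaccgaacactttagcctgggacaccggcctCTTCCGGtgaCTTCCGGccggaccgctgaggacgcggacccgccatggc
MRPL4, chr19:10251801-10251970, plus strand: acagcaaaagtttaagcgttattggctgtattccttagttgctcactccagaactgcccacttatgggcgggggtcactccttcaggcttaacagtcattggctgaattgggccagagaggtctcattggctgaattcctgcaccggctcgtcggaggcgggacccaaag
MRPL40, chr22:19432395-19432564, plus strand: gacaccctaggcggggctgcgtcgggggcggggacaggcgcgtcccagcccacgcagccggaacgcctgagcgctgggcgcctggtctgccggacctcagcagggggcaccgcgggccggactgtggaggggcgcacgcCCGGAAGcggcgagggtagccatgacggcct
In MRPL36 the capitals mark the NRF1 word beginning 109 bases before the start, the E-box 56 bases before it and the YY1 word 37 bases before it, and in MRPS34 and MRPL40 they mark the ETS word. The stretches of MRPL36 and MRPL40 lie inside the deposited gene bounds, 1798386 to 1801366 and 19431902 to 19436075. Their RefSeq start sites thus differ from the outer 5′ ends of these genes, and the sequence before those outer ends was not searched.

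The ETS word CCGGAAG occurred in 27 of the 66 windows (40.9%), against 10.7% of all 27305 windows. YY1's word ANATGGCGG occurred in 19 of the 66 (28.8%), against 2.83% of all windows. The E-box was present in 5 of them (7.58%), in MRPL22, MRPL36, MRPL37, MRPL49 and MRPS18C, against 7.43% of all windows. NRF1's word GCGCANGCG was present in 11 (16.7%), against 8.05%. Thus ETS, YY1 and NRF1 words were more frequent in the windows of these genes than in all windows, while the E-box was about as frequent as in all promoters. All windows include genes not tested here, and each word was more frequent among tested genes. In PC3 the ETS word was in 1837 tested genes and absent from 7593, and the YY1 word in 549 and absent from 8881. For NRF1 the numbers were 1445 and 7985, about the frequency of the members. For the E-box they were 963 and 8467, so members did not exceed tested genes. By subunit, the ETS word was in 16 of 39 large and 11 of 27 small subunit windows and the YY1 word in 12 and 7. None of the 4 words was found in 20 of the 66 windows, 1 kind in 34, 2 kinds in 8 and 3 kinds in 4. A match is a run of letters in a fixed window and not a measured binding site.

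The genes lie on 21 chromosomes, with at most 8 on any of them (chromosomes 1 and 2), so they are not a cluster in the genome. Coding sequences run from 195 bases in MRPL33 to 1449 bases in MRPL37 (GENCODE v29, GRCh38). Exons of 13 members share bases with another annotated gene on the same strand, and in 8 members (MRPL12, MRPL20, MRPL30, MRPL46, MRPS6, MRPS17, MRPS24 and MRPS28) over 20% of exon bases are shared. Values of those 8 are uncertain, since how the authors' counting treated shared bases is not given in the sources used here. A further limit is that 25 members share exon bases with a gene on the other strand, and the strand setting of the counting is not given either.

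Levels were compared between genes per kilobase of coding sequence. Annotated exons can be far longer, with 411 coding and 2634 exon bases in MRPS16, 570 and 5747 in MRPS23, and 465 and 16006 in MRPL42. How many reads fell outside coding sequence is not known, so the order of genes depends on this choice of length. The median over the 75 genes was 102 CPM per kilobase in P493-6 controls and 102 in PC3 controls, and the highest and lowest member differed 21.6-fold in P493-6 and 80.5-fold in PC3. In PC3 controls the highest level was that of MRPS16, a small subunit protein of bacterial descent, at 655 ± 11.3 CPM per kilobase (mean ± SD, n = 3). MRPS6 followed at 519 ± 21.1 and MRPS23 at 508 ± 16.6, a pair that did not differ beyond its spread. MRPL20 at 257 ± 10.0 and MRPL51 at 224 ± 5.60 CPM per kilobase were the highest of the large subunit. The lowest in PC3 were MRPS14 at 21.6 ± 3.01, MRPS31 at 20.7 ± 0.36 and MRPL53 at 8.14 ± 1.60 CPM per kilobase, of which MRPS14 and MRPS31 did not differ beyond their spread.

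In P493-6 controls MRPS34, a protein found only in mitochondrial ribosomes, was highest at 354 ± 15.6 CPM per kilobase. MRPL42 at 278 ± 16.9, MRPS23 at 276 ± 7.41, MRPL50 at 275 ± 18.3 and MRPS25 at 275 ± 13.9 came next and could not be ordered within their spread. The lowest were MRPL38 at 32.6 ± 5.45, MRPL1 at 23.8 ± 1.53 and MRPL53 at 16.4 ± 1.28 CPM per kilobase. CPM are shares of each library with no scaling between the lines, so levels across lines are a description. Control means lay within 2-fold of each other for 61 of the 75 genes. MRPL36, a short protein of the large subunit, stood out at 40.9 ± 3.77 CPM in P493-6 and 7.93 ± 0.692 CPM in PC3, a 5.15-fold difference. In all, 10 genes were at least 2-fold higher in P493-6 and 4 in PC3. MRPS27, MRPS2, MRPS14, MRPL15 and MRPL54 were 3.88-, 3.21-, 3.04-, 2.80- and 2.63-fold higher in P493-6, while MRPL13, MRPS16, MRPS6 and MRPL55 were 2.67-, 2.59-, 2.39- and 2.04-fold higher in PC3.

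**Figure D1:**
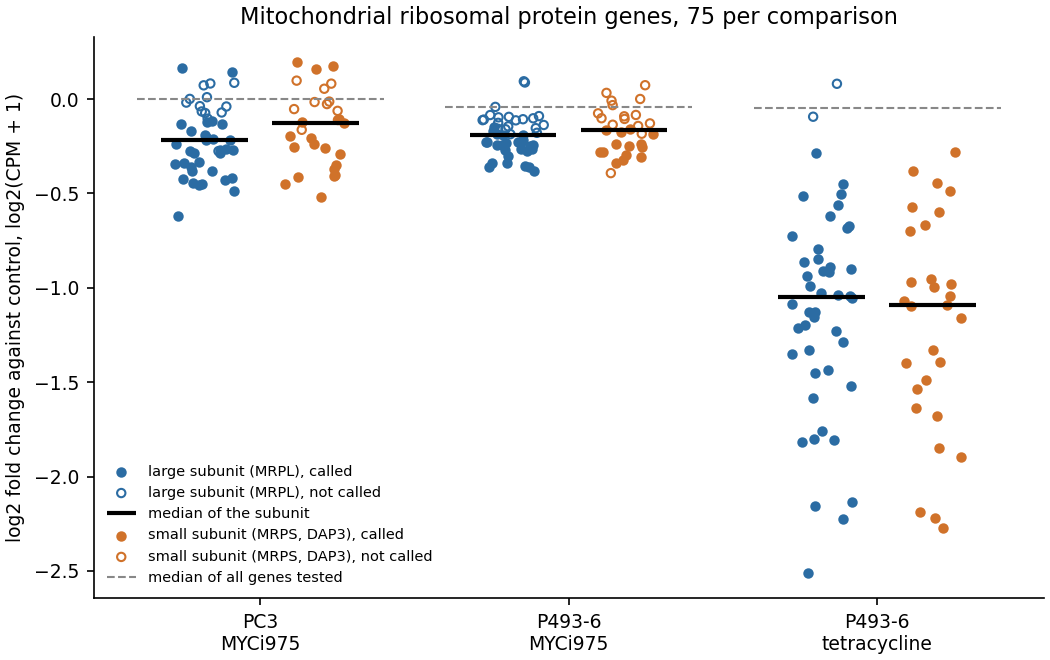
Each point is one of the 75 genes, with its log2 fold change against control on the vertical axis (on log2(CPM + 1)) and the 3 comparisons, split by subunit, on the horizontal axis. Filled points were called by limma at an adjusted p below 0.05, black bars are subunit medians and dashed lines the median of all genes tested. With tetracycline 73 of 75 genes are called lower and the median is −1.07, while both MYCi975 comparisons hold medians of −0.20 and −0.18.

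With tetracycline nearly the whole set was lower in P493-6. Of the 75 genes, 73 fell, 0 rose and 2 were not called (limma on log2(CPM + 1), adjusted p below 0.05 over all 13703 genes), where 41.9% of all genes fell and 36.2% rose. At an unadjusted p below 0.05 the counts were also 73 and 0, and edgeR and DESeq2 on the recovered reads each called 73 lower and 1 higher. The median log2 fold change was −1.07, against −0.05 for all genes tested, and 43 of the 75 genes fell to −1 or beyond. Relative to the control mean, 17.1% to 105.9% of the CPM remained, with a median of 46.7%, and 45 genes kept below 50%. Groups did not overlap, with tetracycline lower, in 73 of 75 genes, against 42.1% of all genes, and with tetracycline higher in 0, against 36.3%.

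MRPL4, a large subunit protein of bacterial descent that lines the exit tunnel (ENSG00000105364, chromosome 19, 10251901 to 10260045, plus strand of hg38), had the largest fall. Its CPM was 189, 197 and 189 in controls and 31.1, 33.9 and 33.5 with tetracycline. The difference was −2.51 on the log2 scale (SE 0.058, adjusted p = 2.11e-32). All 3 tetracycline libraries lay far below all controls. MRPL3, which reaches toward the peptidyl transferase centre, showed 184, 193 and 197 CPM in controls against 44.3, 44.3 and 40.1 CPM under tetracycline. It fell by 2.13 on the log2 scale (SE 0.056, adjusted p = 2.46e-30), again with no overlap. MRPL24, which sits by the tunnel exit, went from 67.0, 69.0 and 67.3 CPM to 15.7, 14.5 and 13.2 CPM, a log2 fold change of −2.16 (SE 0.082, adjusted p = 5.47e-25). The 3 controls and 3 treated libraries of MRPL24 were well apart. MRPL12, the stalk protein that recruits translation factors and is known to bind the mitochondrial RNA polymerase, stood at 21.7, 21.7 and 26.5 CPM in controls against 4.13, 4.17 and 4.24 CPM with tetracycline (log2 fold change −2.22, SE 0.127, adjusted p = 4.39e-19). MRPL12 shares 68.2% of its exon bases with another annotated gene on the same strand, so its value is uncertain.

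Among the small subunit genes MRPS34 fell most. Its libraries stood at 233, 251.2 and 233 CPM in controls against 49.0, 48.4 and 48.8 CPM with tetracycline, and the log2 fold change was −2.27 (SE 0.052, adjusted p = 1.83e-32). The highest member of the control libraries per kilobase was thus among those that lost most. MRPS26, also specific to mitochondria, went from 81.4 ± 5.15 to 16.7 ± 0.853 CPM (log2 fold change −2.22). MRPS2, of bacterial descent, went from 178 ± 3.13 to 38.4 ± 1.84 CPM (−2.19), and MRPS25 from 143 ± 7.20 to 37.7 ± 3.26 CPM (−1.90). None of these had a treated library within the range of the controls. DAP3, a GTP-binding protein of the small subunit first known as a mediator of cell death, had 119, 116 and 116 CPM in controls against 74.8, 78.8 and 67.3 CPM with tetracycline. It fell by 0.67 (SE 0.057, adjusted p = 1.64e-13), a smaller fall than the small subunit median of −1.09.

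MRPL40 and MRPL53, both specific to mitochondrial large subunits, were the genes not called. MRPL40 (ENSG00000185608, chromosome 22, 19431902 to 19436075, plus strand of hg38) showed 71.1, 68.6 and 74.7 CPM in controls against 81.1, 70.9 and 74.99 CPM with tetracycline, and the groups overlapped. Its log2 fold change was 0.08 (SE 0.061, adjusted p = 0.227), and it was called higher with TMM factors (0.16, adjusted p = 0.0174), with edgeR (0.17, adjusted p = 0.0102) and with DESeq2 (0.16, adjusted p = 0.0486). MRPL53, the member with the fewest reads, was at 5.53, 5.08 and 5.93 CPM in controls against 5.39, 4.66 and 5.26 CPM with tetracycline. A log2 fold change of −0.09 (SE 0.155, adjusted p = 0.586) was fitted, with overlapping groups. At this level an SE of 0.155 covers changes of the size seen in the MYCi975 comparisons. The smallest fall of a called large subunit gene was that of MRPL10, from 56.9 ± 3.64 to 46.4 ± 2.35 CPM (−0.29).

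Genes of bacterial descent had a median log2 fold change of −1.20 with tetracycline (45 genes, all called lower), and those specific to mitochondria one of −0.90 (30 genes, 28 called lower). The second class was taken to hold MRPS36 (−0.57), left out by structure below, and MRPS18A (−0.28) and MRPS18B (−1.09), while MRPS18C (−0.60) is in the first. The ranges of both classes overlapped, from −2.51 to −0.29 and from −2.27 to 0.08, and their difference was not tested. By E-box, the 5 genes with the word had a median of −0.91 and the 61 without it −1.07. Over all tested genes with a window, the medians were −0.38 with an E-box and −0.09 without. Members with the ETS word had a median of −0.94 (27 genes) and those without −1.23 (39 genes). Over all tested genes with a window, the order was the reverse, with medians of −0.19 with the ETS word and −0.09 without. The fall was not ordered by level or by length, with a Spearman rho of −0.20 against the control level per kilobase and −0.22 against coding length, described over 75 genes of the same libraries.

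**Figure D2:**
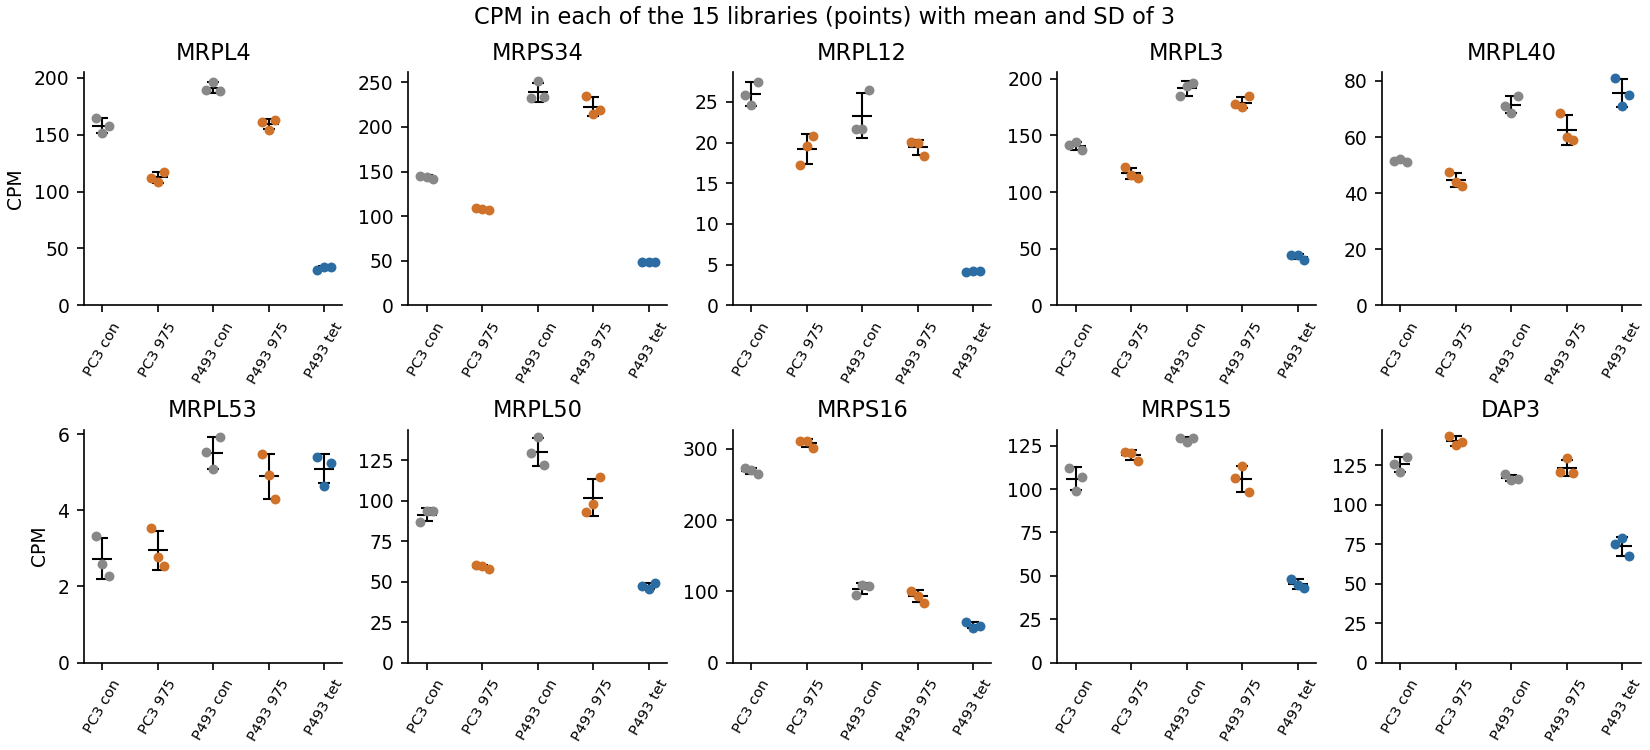
CPM (vertical axes, each from 0) of 10 of the genes in each of the 15 libraries, with horizontal bars for the mean and whiskers for the SD of 3 libraries per group. Tetracycline libraries lie near the bottom of the panels of MRPL4, MRPS34, MRPL12 and MRPL3, at the height of the controls for MRPL40 and MRPL53, and in PC3 the MYCi975 libraries lie above the controls for MRPS16, MRPS15 and DAP3.

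MYCi975 lowered the set in P493-6 by much less. Of the 75 genes, 39 fell, 0 rose and 36 were not called, where 18.0% of all 12998 genes fell and 10.6% rose (limma). At an unadjusted p below 0.05 the counts were 52 lower and 0 higher, and neither edgeR nor DESeq2 called a member higher. The median log2 fold change was −0.18, against −0.04 for all genes, and 70 of the 75 values were negative. These counts depend on scaling: of all calls in this comparison 63.0% were lower on CPM and 48.2% with TMM factors, which moved the median of all genes by 0.04, and 27 members fell with TMM factors, 27 with edgeR and 23 with DESeq2, in each case members also called on CPM. The libraries of the groups did not overlap, with MYCi975 lower, in 45 of the 75 genes, against 24.8% of all genes, and with MYCi975 higher in 2, against 15.2%.

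MRPL18, of bacterial descent and known to take part in the import of 5S ribosomal RNA, fell most among the called genes. It had 36.4, 35.5 and 32.9 CPM in control libraries and 29.3, 24.7 and 26.1 CPM after MYCi975. Its log2 fold change was −0.38 (SE 0.080, adjusted p = 0.000226), and every treated library was below every control. MRPL49, specific to mitochondria, had 48.8, 51.8 and 44.8 CPM in control libraries and 39.3, 37.2 and 35.8 CPM after MYCi975, a log2 fold change of −0.36 (SE 0.070, adjusted p = 7.11e-05). Here too the groups were apart. MRPL32, which is cleaved by the m-AAA protease before it joins the ribosome, fell from 68.0, 70.5 and 68.7 to 51.7, 54.8 and 54.2 CPM (log2 fold change −0.36, SE 0.059, adjusted p = 4.56e-06). MRPL50 fell from 130.2 ± 8.69 to 102 ± 11.5 CPM (−0.35), MRPL27 from 40.8 ± 4.70 to 32.0 ± 2.40 CPM (−0.34) and MRPL20 from 70.6 ± 2.20 to 55.7 ± 3.83 CPM (−0.34). In the small subunit MRPS11 fell from 59.0 ± 2.98 to 46.7 ± 4.73 CPM (−0.34) and MRPS31 from 53.2 ± 1.94 to 42.4 ± 1.77 CPM (−0.32).

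Nearest to no change were MRPS24, at 24.5 ± 1.63 CPM in controls and 24.6 ± 3.24 with MYCi975 (log2 fold change 0.00), and MRPS5, at 151 ± 6.67 and 149.8 ± 2.60 CPM (−0.01). DAP3 was 119, 116 and 116 CPM in control libraries and 120.4, 129 and 120.2 CPM after MYCi975. Its log2 fold change of 0.07 was not called (SE 0.049, adjusted p = 0.279), although every treated library lay above every control. The lowest fitted value of all 75 genes belonged to MRPS17, singled out after its values were seen, and was not called. Its treated libraries held 19.8, 21.9 and 32.2 CPM against 32.8, 31.7 and 31.4 CPM in controls, so that replicate 3 lay among the controls and the other two well below.

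Both P493-6 comparisons used the same 3 control libraries, so their values are given side by side and the treatments were compared directly over all 9 libraries and 12860 genes. With MYCi975 72 of the 75 genes stood higher than with tetracycline, 1 stood lower and 2 were not called, where 42.3% of all genes were higher and 33.9% lower. The libraries did not overlap in 70 genes higher and 1 lower with MYCi975, against 42.7% and 34.2% of all genes. TMM factors moved the median of all genes in this contrast by −0.10 and edgeR by −0.10, and the members called higher then numbered 69 and 69. MRPL4 was at 159 ± 4.43 CPM with MYCi975 and 32.8 ± 1.51 with tetracycline, a log2 difference of 2.25 (SE 0.052, adjusted p = 8.91e-38). MRPS34 differed by 2.17, MRPS26 by 2.09 and MRPL3 by 2.04. The gene lower with MYCi975 was MRPL40, at 68.5, 59.9 and 59.0 CPM against 81.1, 70.9 and 74.99 CPM with tetracycline (log2 difference −0.27, SE 0.063, adjusted p = 0.000124), with no overlap between these groups. For MRPL49 the treated groups lay closer together, at 37.5 ± 1.77 CPM with MYCi975 and 35.2 ± 2.36 with tetracycline, and the difference of 0.09 was not called (SE 0.074, adjusted p = 0.272).

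In PC3, MYCi975 lowered most of the set and raised a few members. Of the 75 genes, 47 fell, 5 rose and 23 were not called, where 30.1% of all 13751 genes fell and 29.0% rose (limma). The median log2 fold change was −0.20, against −0.00 for all genes tested, and 62 values were negative. Treated libraries lay below all controls in 43 genes, against 31.7% of all genes, and above all controls in 6, against 30.2%. TMM factors moved the median of all genes by 0.01 here.

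MRPL50, specific to the mitochondrial large subunit (ENSG00000136897, chromosome 9, 101387633 to 101398614, minus strand of hg38), fell most. Its CPM was 86.7, 93.7 and 93.6 in controls and 60.1, 59.5 and 57.8 with MYCi975. That is −0.62 on the log2 scale (SE 0.049, adjusted p = 9.16e-21). All treated libraries were far below all controls. MRPS9, a small subunit protein of bacterial descent, had 93.9, 97.0 and 92.1 CPM in control libraries and 67.8, 64.9 and 64.0 CPM after MYCi975 (log2 fold change −0.52, SE 0.047, adjusted p = 2.36e-17), again without overlap. MRPL4, the gene that fell most with tetracycline in P493-6, was at 165, 152 and 158 CPM in PC3 controls and 112, 108 and 117 CPM with MYCi975 (log2 fold change −0.49, SE 0.040, adjusted p = 1.92e-19). No MRPL4 library of one group reached the other. MRPL16 fell from 79.3 ± 0.579 to 57.6 ± 1.84 CPM (−0.46) and MRPL49 from 77.8 ± 2.97 to 56.7 ± 3.83 CPM (−0.45). MRPS25, MRPL13 and MRPL15 fell by 0.45, 0.44 and 0.43 on the log2 scale. MRPL15 varied between its controls, at 27.8, 26.3 and 19.96 CPM, and the lowest of them was close to the highest treated library among 18.9, 17.9 and 16.9 CPM.

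The 5 genes that rose were MRPS16, MRPS15, MRPL24, DAP3 and MRPL10. MRPS16 (ENSG00000182180, chromosome 10, 73248843 to 73252693, minus strand of hg38) was already the highest member per kilobase of coding sequence in PC3. It had 273, 269.9 and 264 CPM in control libraries and 312, 311 and 302 CPM after MYCi975. The rise was 0.19 on the log2 scale (SE 0.033, adjusted p = 1.97e-07). Every treated library was above every control. MRPS15, which binds ribosomal RNA early in assembly of the bacterial small subunit, rose from 112, 99.0 and 107 to 122, 121 and 116 CPM (log2 fold change 0.17, SE 0.043, adjusted p = 0.00032). MRPL24 rose from 96.2, 88.2 and 90.9 to 106, 100.03 and 103 CPM (log2 fold change 0.17, SE 0.044, adjusted p = 0.000779), and DAP3 from 126, 121 and 130.3 to 144, 138 and 139.5 CPM (log2 fold change 0.16, SE 0.040, adjusted p = 0.000411). MRPL10, which anchors the stalk of the large subunit, rose from 82.7 ± 0.124 to 91.5 ± 2.72 CPM (0.14). All of these rises were small, and all 5 genes had groups that did not overlap. MRPL54 and MRPL2 were nearest to no change, with log2 fold changes of 0.00 and 0.01.

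Each of the 5 genes that rose in PC3 fell with tetracycline in P493-6. On CPM, MRPL24, MRPS15 and MRPS16 also fell with MYCi975 in P493-6, by 0.17, 0.28 and 0.16. DAP3 (0.07) and MRPL10 (0.09) were not called there. Calls in P493-6 depended on scaling, with 39 members lower on CPM and 27 with TMM factors. Of the 47 genes that fell in PC3 and the 39 that fell in P493-6 with MYCi975, 29 were the same genes, 61.7% of the first list and 74.4% of the second. Over the 11240 genes in both tables the corresponding shares were 41.8% and 67.5%. Members fell more often in each line, 62.7% in PC3 and 52.0% in P493-6, whereas 3619 and 2239 of the 11240 genes fell. A larger shared part follows in part from these higher rates, so the shares do not measure closer agreement among members. Across the 75 genes the log2 fold changes of the lines had a Pearson r of 0.47 and a Spearman rho of 0.46, against 0.41 and 0.41 over all shared genes, a description over genes that are not independent.

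**Figure D3:**
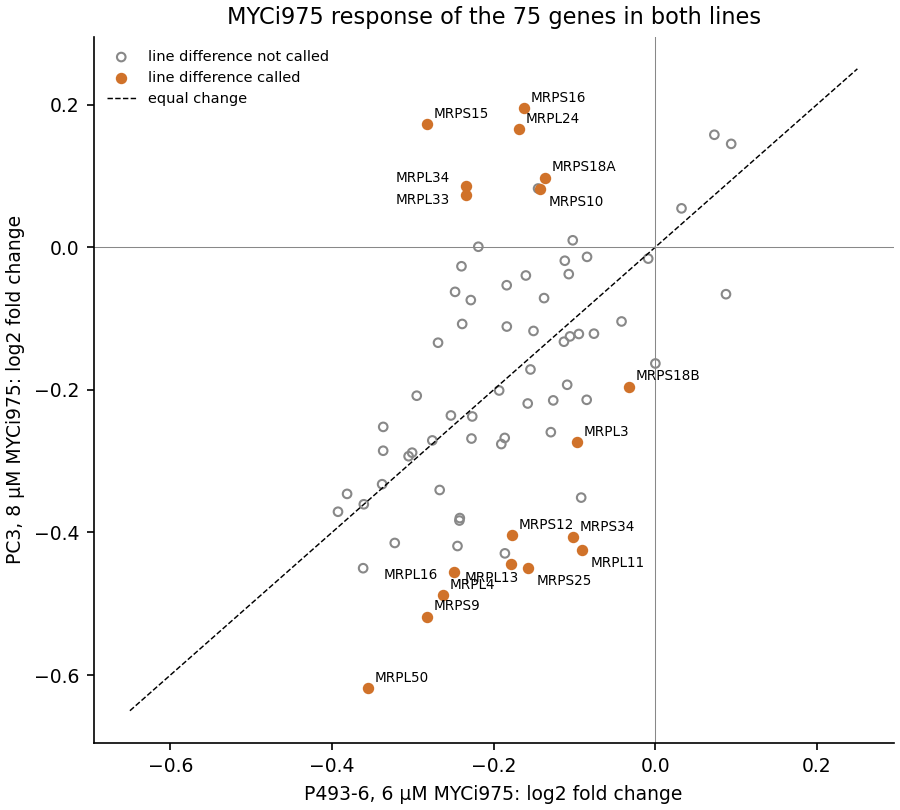
Each point is one of the 75 genes, with its MYCi975 log2 fold change in P493-6 (6 µM) on the horizontal axis and in PC3 (8 µM) on the vertical axis, and the dashed line marks equal change. Filled, named points are the 18 genes whose change differed between the lines by the interaction test (limma, adjusted p below 0.05), 7 above the line and 11 below it.

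The difference between the lines was tested with an interaction term over the 12 libraries of controls and MYCi975. Of the 75 genes, 11 changed more negatively in PC3 and 7 more positively, 14.7% and 9.33%, where 18.2% and 18.1% of all 11240 genes did so. The share of members that differed between the lines was thus not above that of all genes. MRPS15 differed most, by 0.45 (SE 0.070, adjusted p = 1.57e-06), with 129.5, 127 and 129.5 CPM in P493-6 controls and 106, 113 and 98.3 CPM with MYCi975, where PC3 went the other way. MRPS16 differed by 0.36, MRPL24 by 0.33 and MRPL34, a short protein of bacterial descent, by 0.32. MRPL11, at the stalk base, changed more negatively in PC3, by −0.33 (SE 0.074, adjusted p = 0.000412). It had 51.4, 49.5 and 52.9 CPM in PC3 controls and 37.6, 38.5 and 37.7 CPM with MYCi975, but 102, 106 and 105 and 102, 99.3 and 92.9 CPM in P493-6. MRPS34 differed by −0.31, MRPS25 by −0.29 and MRPL13 by −0.26. The doses were 8 µM in PC3 and 6 µM in P493-6, so dose and line cannot be told apart.

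Most genes of both subunits fell with tetracycline, and about equal shares of each fell with MYCi975 in P493-6. With tetracycline 44 of 46 large and 29 of 29 small subunit genes fell, with medians of −1.05 and −1.09. With MYCi975 25 of 46 and 14 of 29 fell there, with medians of −0.19 and −0.16. In PC3 31 of 46 large subunit genes fell and 2 rose (median −0.22), and 16 of 29 small subunit genes fell and 3 rose (median −0.13). The large minus small median was −0.09 in PC3 (SD over replicates 0.015), −0.03 in P493-6 with MYCi975 (SD 0.026) and 0.04 with tetracycline (SD 0.072). Each SD is the spread between libraries within groups of the large minus small median of log2(CPM + 1) centred per gene. It is not an error of the difference it stands beside. The PC3 value shrank to −0.035 once MRPS30 and MRPS18A, which sit in the large subunit of the human mitochondrial ribosome, were counted there and MRPS36, a protein of the 2-oxoglutarate dehydrogenase complex, was left out. With subunits by symbol it was −0.05 without PC3 MYCi975 replicate 3 and −0.05 without PC3 control replicate 2. The tetracycline value was −0.05 without tetracycline replicate 1.

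Summed over all 75 genes, the set took 0.592% of reads in P493-6 controls (5916 ± 25.5 CPM), 5254 ± 87.6 CPM with MYCi975 and 2612 ± 53.4 CPM with tetracycline. In PC3 the sum was 5889 ± 101 CPM in controls and 5231 ± 48.7 CPM with MYCi975. The change in the sum was thus −11.2% with MYCi975 in each line and −55.8% with tetracycline, and no treated library reached a control. By subunit, the change in PC3 was −14.2% for large and −8.01% for small subunit reads. In P493-6 MYCi975 gave −12.4% for large and −9.83% for small subunit reads, against −54.9% and −56.8% for tetracycline. The ratio of summed large to small subunit CPM was 1.04, 1.04 and 1.03 in the PC3 controls and 0.965, 0.968 and 0.966 in the PC3 libraries with MYCi975. In P493-6 it was 1.08, 1.08 and 1.09 in controls, 1.06, 1.06 and 1.04 with MYCi975 and 1.18, 1.10 and 1.11 with tetracycline. In both lines all MYCi975 libraries thus lay below all controls, and all tetracycline libraries lay above them. The first tetracycline library stood apart from the other two in this ratio. With subunits assigned by structure the ratio was 1.19 in PC3 controls and 1.12 with MYCi975, and 1.24, 1.21 and 1.33 in P493-6 controls, with MYCi975 and with tetracycline, and again no treated group overlapped its controls.

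**Figure D4:**
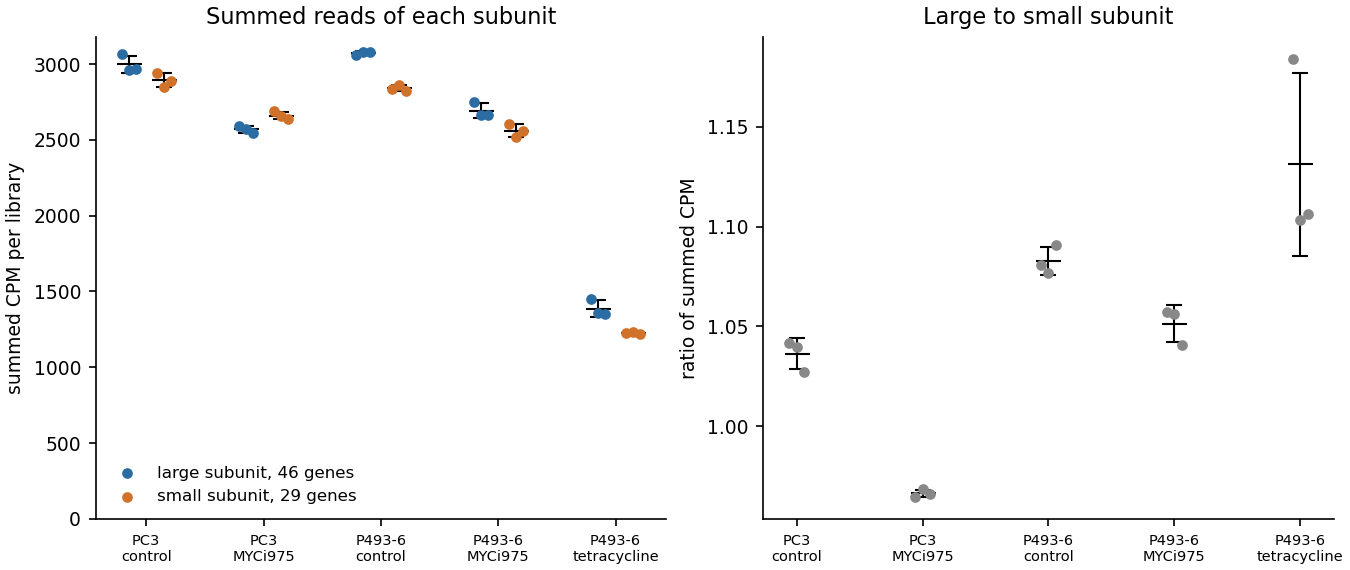
The left panel plots the summed CPM of the 46 large and 29 small subunit genes in each library (points), and the right panel their ratio, with bars for the mean and whiskers for the SD of 3 libraries; the ratio axis does not start at 0. In PC3 with MYCi975 the large subunit sum lies below the small one, at ratios of 0.965 to 0.968, in P493-6 the ratio lies below the controls with MYCi975 and above them with tetracycline, and the tetracycline libraries hold less than 1500 CPM for either subunit.

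Other mitoribosomal proteins carry symbols outside the rule, and 6 of them were measured. All 6 (MRP63, ICT1, GADD45GIP1, PTCD3, CHCHD1 and AURKAIP1) fell with tetracycline, with a median of −1.18. In PC3 4 of 6 fell and 0 rose, and in P493-6 with MYCi975 3 of 6 fell and 0 rose. Of all genes, 30.1% and 18.0% fell in these comparisons, and 41.9% with tetracycline. GADD45GIP1, a large subunit protein also called CRIF1, was at 198, 221 and 222 CPM in P493-6 controls and 68.8, 63.1 and 59.9 CPM with tetracycline (log2 fold change −1.73, SE 0.055, adjusted p = 3.05e-27). PTCD3, an RNA-binding small subunit protein, fell by 0.35 in PC3, 0.17 in P493-6 with MYCi975 and 1.35 with tetracycline. MRPL45, entered in the tables without a symbol, fell by 0.65 with tetracycline and was not called with MYCi975 in PC3 (−0.08) or P493-6 (0.09).

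Factors that assemble the mitochondrial ribosome or modify its RNA were measured too, with 21 of 24 lower and 1 higher with tetracycline (median −0.97), 9 lower and 1 higher in P493-6 with MYCi975 (median −0.17) and 11 lower and 1 higher in PC3 (median −0.17). MRM1, a methyltransferase of the large ribosomal RNA, fell by 2.46 with tetracycline, and MTERFD1, an assembly factor, by 1.71. In PC3 MTERFD1 fell by 0.59 and the methyltransferase RNMTL1 by 0.55. FASTKD2, which binds the large ribosomal RNA, fell by 0.34 in P493-6 with MYCi975. Of 17 translation factors 15 fell and 1 rose with tetracycline (median −1.29), and 7 fell and 1 rose in P493-6 with MYCi975 (median −0.16). In PC3 7 of the 17 fell and 3 rose (median −0.00), 41.2% and 17.6%. For both lists, the shares of all genes that fell and rose were 41.9% and 36.2% with tetracycline. They were 18.0% and 10.6% in P493-6 with MYCi975, and 30.1% and 29.0% in PC3. TUFM, the mitochondrial elongation factor that delivers transfer RNA, fell by 1.75 with tetracycline, while its MYCi975 values of 0.00 in P493-6 and 0.00 in PC3 were not called. SLIRP, which keeps mitochondrial messenger RNAs stable, fell by 2.38 with tetracycline and 0.48 with MYCi975 in P493-6, and by 0.22 in PC3.

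All 5 genes of the mitochondrial transcription machinery fell with tetracycline (median −1.66) and in PC3 (median −0.36), and 4 of 5 fell in P493-6 with MYCi975 (median −0.24). In the same order, 41.9%, 30.1% and 18.0% of all genes fell. TFAM, which packages and transcribes mitochondrial DNA, was at 169.5, 172 and 171 CPM in PC3 controls and 108, 112 and 106 CPM with MYCi975 (log2 fold change −0.65, SE 0.039, adjusted p = 7.41e-28). POLRMT, the mitochondrial RNA polymerase, fell by 2.30 with tetracycline. No messenger RNA encoded by mitochondria themselves was called lower in P493-6. Of 13, 10 were higher and 0 lower with tetracycline (median 0.31), where 36.2% of all genes rose. With MYCi975 9 were higher and 0 lower (median 0.39), where 10.6% of all genes rose. The summed CPM of the 13 was 14832 ± 637 in P493-6 controls, 19910 ± 2335 with MYCi975 and 19905 ± 1737 with tetracycline. Each treated library was above each control. In PC3 3 rose and 1 fell (median 0.00), 23.1% and 7.69%, against 29.0% and 30.1% of all genes. The PC3 sums of 8621 ± 927 CPM in controls and 9667 ± 889 CPM with MYCi975 overlapped. MT-CO1, a core subunit of cytochrome c oxidase, went from 4294, 4051 and 4067 CPM to 6559.7, 7544 and 6551 CPM with tetracycline (log2 fold change 0.73, SE 0.043, adjusted p = 2.39e-12).

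Among 7 regulators of nuclear genes for mitochondria, 5 fell with tetracycline, 3 in P493-6 with MYCi975 and 4 in PC3, where ESRRA rose by 0.27. The shares of all genes that fell were 41.9%, 18.0% and 30.1%. PPRC1, a coactivator of the PGC-1 family, fell in all 3 comparisons, by 2.21, 0.25 and 0.49. GABPA, the DNA-binding subunit of an ETS factor, fell with MYCi975 by 0.36 in PC3 and by 0.15 in P493-6, and its value with tetracycline was not called (−0.06). YY1 fell by 0.42 with tetracycline and 0.19 in PC3, and its value in P493-6 with MYCi975 was not called (−0.07).

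The authors' deposited adjusted p-values (edgeR) were also read at a threshold of 0.01, with the direction of the authors' fold change. By this reading, 39 members were lower and 5 higher in PC3. In P493-6, 22 were lower and 0 higher with MYCi975, and 73 lower and 0 higher with tetracycline. By the same threshold, 25.3% of all genes were lower and 25.1% higher in PC3. In P493-6 9.51% were lower and 10.6% higher with MYCi975, and 36.7% lower and 36.4% higher with tetracycline. Every member below that threshold was called in the same direction on log2(CPM + 1).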

How the data were processed

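RNA of 15 samples (50 ng of input, stranded exon capture library, per the labels' protocols) was measured. STAR, HTSeq and edgeR served for alignment to hg38, counting and testing, per the submitters' processing notes; the sources used here give no versions, annotation or strand setting. The authors deposited CPM with no further scaling. Whole reads were recovered from the CPM for all genes within a tolerance of 0.001 reads. Log2 values (fold change, mean CPM), a test score, p-values and 0 or 1 marks by the authors stand beside them, per the file headers; only the marks are quoted. As CPM are shares of a library, a change in the RNA content of cells was not tested.

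limma 3.58.1 (trend and robust settings, R 4.3.3) was run on log2(CPM + 1) over all genes of a table, or over genes shared by tables, with Benjamini-Hochberg adjustment over all of them and a two-sided threshold of 0.05. Both P493-6 tables hold the same control values. Alternatives were pseudocounts of 0.1 and 5 CPM, TMM factors, a mean CPM of at least 5, a replicate block, edgeR 4.0.16 and DESeq2 1.42.0 on the recovered reads, and leaving out each library; the code was tested on simulated data. The members and lists were chosen with earlier results of these data known.

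Named genes follow a rule. In each comparison with control, it takes the 8 largest called falls, the 6 largest called rises, DAP3 and the 2 values nearest 0. In the direct and line contrasts, it takes the 4 largest differences per direction. It adds members called in opposite directions, the 5 highest and 3 lowest levels per line, all 6 proteins with other symbols, and up to 4 called genes per list and comparison. MRPL36, MRPL54, MRPL55, MRPS14, MRPS17, MRPS27, MRPL45, EPCAM, TUFM and YY1 were named in places after their values were seen.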

Additional observations from a re-analysis of the deposited data

Results flagged for a closer look

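The MYCi975 response of 8 named members differed between the lines by the interaction test (limma, PC3 minus P493-6 on log2(CPM + 1), adjusted over 11240 genes). It was more positive in PC3 for MRPS15 (0.45, adjusted p = 1.57e-06), MRPS16 (0.36, adjusted p = 0.000383), MRPL24 (0.33, adjusted p = 0.000331) and MRPL34 (0.32, adjusted p = 0.00782). It was more negative in PC3 for MRPL11 (−0.33, adjusted p = 0.000412), MRPS34 (−0.31, adjusted p = 6.09e-05), MRPS25 (−0.29, adjusted p = 0.000954) and MRPL13 (−0.26, adjusted p = 0.00809). On CPM, MRPS15, MRPS16 and MRPL24 were called in opposite directions in the lines, whereas MRPL34 fell in P493-6 and was not called in PC3. Calls in P493-6 with MYCi975 depended on scaling, with 39 members lower on CPM and 27 with TMM factors. The doses differed between the lines, and their part in these differences cannot be told apart from that of the line.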

How the results depend on the processing

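Counts of members kept their direction under every alternative run. In P493-6 with MYCi975, 23 members fell with DESeq2 against 39 on CPM, and 31 to 42 with the other limma settings on CPM. With tetracycline 1 member, MRPL40, was called higher with TMM factors, edgeR and DESeq2 (1 in each), and 73 fell throughout. The large minus small median in PC3 was −0.035 with subunits by structure, −0.075 with a pseudocount of 5 CPM, and −0.121 to −0.052 when one library was left out. With tetracycline it ranged from −0.050 to 0.052 when one library was left out, and only the value without tetracycline replicate 1 was negative. With MYCi975 in P493-6 it ranged from −0.039 to −0.011. Ratios with subunits by structure were 1.24, 1.21 and 1.33 in P493-6 controls, MYCi975 and tetracycline, and 1.19 and 1.12 in PC3 controls and MYCi975. The causes were not tested. Of 713 values under alternatives, for 50 results that each pair a named member with a comparison, 710 kept their call and 3, all of MRPL40, gained one. These results were chosen as the largest called changes, DAP3 or the values nearest 0, so their stability does not describe the other members. Over all genes, the deviations of same-numbered samples from their group means had correlations of −0.07 to 0.04. Such deviations also hold counting noise, so these values cannot decide whether the numbers pair the samples. With the replicate block 49 members fell in PC3, 35 in P493-6 with MYCi975 and 73 with tetracycline, 72 stood higher in the direct contrast, and 10 and 7 differed between the lines. Depth limits MRPL53 most, at 2.73 CPM in PC3 controls.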
